A study of Mus musculus with 6 samples.

Results

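The cadherins and protocadherins were taken as every gene of the count table whose symbol is Cdh with only a number after it, or begins with Pcdh. This gave 93 of the 32493 genes counted, made up of 23 cadherins, 12 protocadherins that stand alone in the genome and 58 protocadherins of the alpha (14), beta (22) and gamma (22) clusters on chromosome 18. Cadherins are membrane proteins that bind one another across cell contacts through calcium-dependent extracellular repeats. The tails of classical cadherins are tied to actin by catenins, and N-cadherin (*Cdh2*) holds the adherens junctions of radial glia, the stem cells of the embryonic cortex. Protocadherins carry other tails, and several delta protocadherins recruit the WAVE actin regulators. The clustered isoforms, each driven by a promoter of its own and spliced in the alpha and gamma clusters to shared constant exons, give single neurons their surface identity.

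RNA was sequenced from neural stem cells (NSCs) grown from the brains of E14.5 mouse embryos, dissected at the lateral ventricles and passaged in medium with EGF and bFGF. The ctrl embryos were miR-151 fl/fl without Cre (called wt in the labels), and the cko embryos were miR-151 fl/fl with Emx1-IRES-Cre. Both groups thus carried the floxed allele, but only cko carried Cre. The comparison asks what loss of miR-151 changes, and effects of Cre itself cannot be told apart from it. Emx1 drives Cre in progenitors of the dorsal forebrain, and cells without an Emx1 history keep the microRNA. Each group has 3 columns in the table. The column of ctrl 2 equalled the rounded mean of ctrl 1 and ctrl 3 in all 32493 genes, so 2 ctrl and 3 cko libraries were compared. How many embryos gave each library is not given in the sources used here, and the p-values measure the spread between these libraries, which may be technical. The microRNA itself was not analysed here, and the values hold no check of its deletion. *Ptk2*, the gene whose intron holds miR-151, had 133 and 149 CPM in the ctrl libraries and 142, 138 and 139.7 CPM in the cko libraries (CPM, the count relative to the library total as scaled by TMM). These ranges overlapped (log2 fold change -0.01, SE 0.08, edgeR adjusted p = 0.943).

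The libraries held between 17883796 and 23335736 counts, so that 3 counts, taken as the floor of detection, stand for 0.128 to 0.168 CPM, which covers counting error only. All 13 NSC markers listed were tested, with summed levels between 7574 and 8617 CPM in ctrl and between 9006 and 9672 CPM in cko. Of them 5 rose (*Nes*, *Hes5*, *Prom1*, *Notch1* and *Lhx2*), 1 fell (*Slc1a3*) and 7 were not called, *Sox2*, *Pax6* and *Msi1* among these. *Nes*, the intermediate filament nestin, had 470.1 and 537 CPM in the ctrl libraries and 874, 1067 and 1033 CPM in the cko libraries (log2 fold change 0.98, SE 0.11, edgeR adjusted p = 0.00287). *Slc1a3*, a glutamate transporter of radial glia and astrocytes, had 1664 and 1896 CPM in the ctrl libraries and 1177, 968 and 942 CPM in the cko libraries (log2 fold change -0.79, SE 0.12, edgeR adjusted p = 0.00639). Of 10 oligodendrocyte lineage markers 6 fell, 2 rose, and their summed level lay between 3215 and 3835 CPM in ctrl and between 3507 and 3758 CPM in cko. Of 8 astrocyte markers 5 fell and none rose, with summed levels between 1763 and 2704 CPM in ctrl and between 801 and 1412 CPM in cko. The ctrl libraries differed most in *Gfap* of this list, with 1007 CPM in ctrl 1 and 177 CPM in ctrl 3. Its cko values of 297, 86.6 and 121 CPM overlapped these, and it was not called. Of the neuronal markers 1 of 8 tested rose and 1 fell, with sums between 1324 and 1390.4 CPM in ctrl and between 1416 and 1469 CPM in cko. Markers of cells that a ventricular dissection could bring along were scarce. The microglia list summed to at most 0.799 CPM with *Cx3cr1*, *Tmem119* and *Itgam* at 0 in every library, and the endothelial list to at most 7.21 CPM. The ependymal list summed to between 16.8 and 26.3 CPM in ctrl and between 20.1 and 21.7 CPM in cko. Mural and fibroblast genes summed to between 3.88 and 7.14 CPM in ctrl and between 1.73 and 2.52 CPM in cko. Choroid plexus genes summed to between 10.4 and 11.2 CPM in ctrl and between 2.34 and 3.43 CPM in cko. In these bulk samples fewer cells of a type and less RNA per cell cannot be told apart, and the part of these lists in the results on cadherins was not tested.

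Of the 93 genes, 72 passed the filter on low counts and were tested, and the other 21 held at most 18 counts in any library, 12 of them at most 3. The test was edgeR's over 16710 genes, and genes were called where p, after Benjamini-Hochberg adjustment, was under 0.05. By this rule 6 members rose in cko (*Pcdh10*, *Pcdh19*, *Cdh6*, *Pcdhac1*, *Pcdha10* and *Pcdhgc4*), 2 fell (*Pcdh7* and *Pcdhb9*) and 64 were not called. Over all genes tested 7.86% rose and 8.57% fell, 16.4% in all. The members' 8.33% that rose lay near this background and their 2.78% that fell lay below it. The median log2 fold change of the 72 was 0.04. The study's threshold, a log2 fold change beyond 0.9 with an unadjusted p under 0.01, was applied to the edgeR values given here. The study itself used DESeq2, so these are not its own calls. By this threshold 3 members rose (*Pcdha5*, *Pcdha10* and *Pcdhac1*) and 1 fell (*Pcdhb9*), beside 2.39% and 4.17% of all genes. In 20 members every cko library lay above both ctrl libraries and in 14 every cko library lay below both, beside 25.4% and 24.2% of all genes tested. Read against these shares, the counts are not a result about the superfamily as a whole, and its groups are described one by one.

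**Figure D1:**
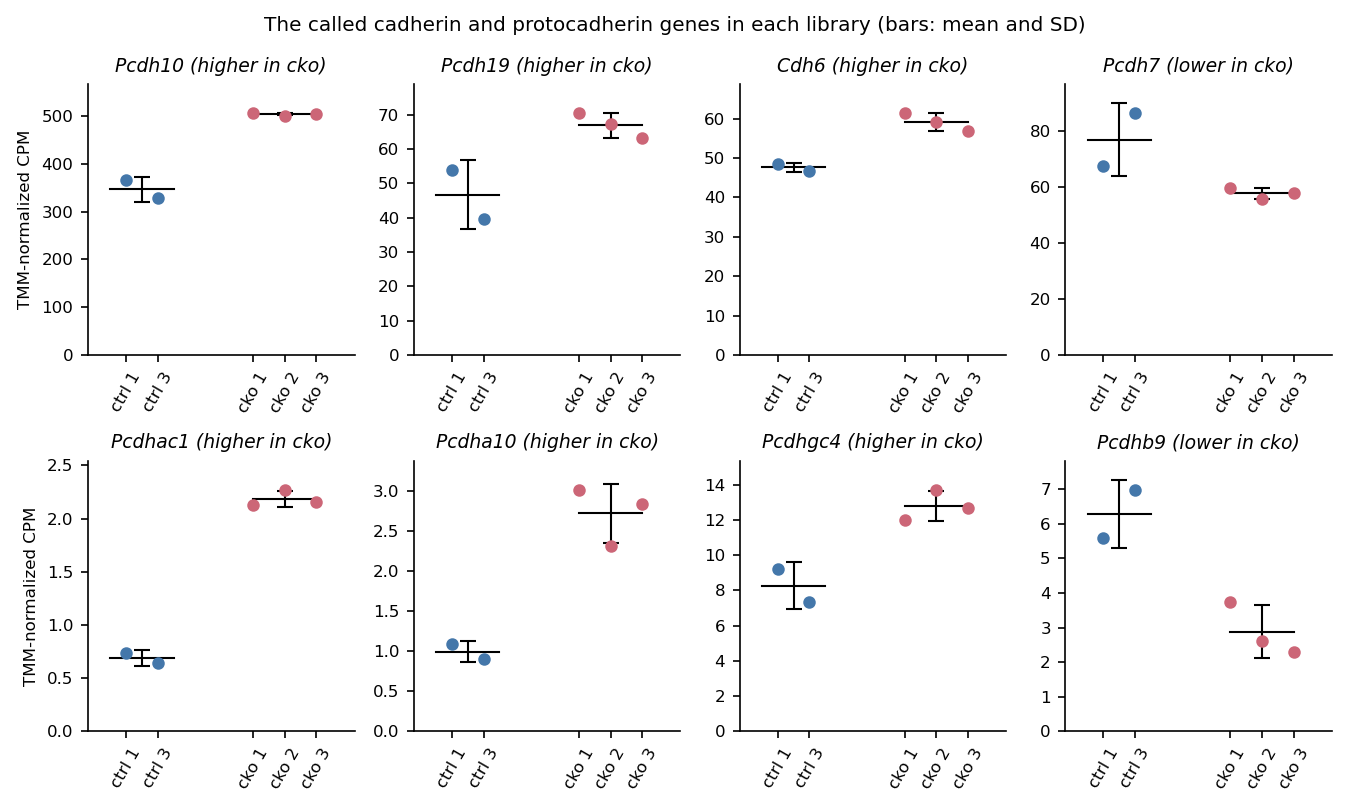
The 8 called members in each library. The vertical axis of each panel is the level of 1 gene in TMM-normalized CPM, from 0; blue points are the ctrl libraries, red points the cko libraries, and black lines the mean with its SD. In each panel the ctrl and the cko points are fully separated, above ctrl in *Pcdh10*, *Pcdh19*, *Cdh6*, *Pcdhac1*, *Pcdha10* and *Pcdhgc4* and below ctrl in *Pcdh7* and *Pcdhb9*.

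The 4 called members outside the clusters each have a promoter of their own, and the first that RefSeq lists for each is shown. Counts per gene do not show which start the transcripts use, and this was not tested. RefSeq (GRCm38.p6) held promoters of 22 of the 93 members, 14 of them tested, and none of the clusters. The 250 bases before each annotated start are printed 5′ to 3′ on the gene's strand, with GC boxes (GGGCGG or its reverse complement CCGCCC) in capitals. They lie at chr3:45378148-45378397 on the plus strand (*Pcdh10*), chrX:133688994-133689243 on the minus strand (*Pcdh19*), chr15:13173676-13173925 on the minus strand (*Cdh6*) and chr5:57717831-57718080 on the plus strand (*Pcdh7*). The *Pcdh7* stretch runs into the gene as GENCODE places it, from 57717967.
Pcdh10: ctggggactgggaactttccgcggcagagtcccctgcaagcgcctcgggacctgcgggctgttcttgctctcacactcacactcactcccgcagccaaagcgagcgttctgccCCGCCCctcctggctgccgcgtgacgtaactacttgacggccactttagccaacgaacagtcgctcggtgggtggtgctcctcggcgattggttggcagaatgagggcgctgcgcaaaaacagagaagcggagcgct
Pcdh19: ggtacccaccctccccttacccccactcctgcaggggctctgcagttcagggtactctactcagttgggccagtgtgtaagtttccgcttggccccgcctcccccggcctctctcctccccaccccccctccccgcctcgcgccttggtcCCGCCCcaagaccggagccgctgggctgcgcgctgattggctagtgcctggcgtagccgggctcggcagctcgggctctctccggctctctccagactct
Cdh6: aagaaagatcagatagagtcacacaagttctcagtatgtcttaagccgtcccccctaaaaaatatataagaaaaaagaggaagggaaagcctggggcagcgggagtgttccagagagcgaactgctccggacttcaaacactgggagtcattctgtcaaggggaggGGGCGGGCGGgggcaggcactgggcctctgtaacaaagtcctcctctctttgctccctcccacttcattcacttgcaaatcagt
Pcdh7: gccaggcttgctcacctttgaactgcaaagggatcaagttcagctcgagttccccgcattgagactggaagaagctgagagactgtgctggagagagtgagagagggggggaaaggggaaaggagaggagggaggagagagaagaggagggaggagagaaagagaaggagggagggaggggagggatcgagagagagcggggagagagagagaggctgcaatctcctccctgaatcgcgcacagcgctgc
The 3 genes that rose held a GC box in this window and *Pcdh7*, which fell, held none. A GC box was present in 32.7% of the 32851 promoters in the RefSeq table and in 9 of the 22 members matched, so its presence is a description of these letters only. In *Cdh6* the matches are 2 that overlap, at 80 and 84 bases before the start, whereas *Pcdh10* had 1 at 137 and *Pcdh19* 1 at 100 bases. The CCAAT box (CCAAT on either strand) was found once in *Pcdh10* and once in *Pcdh19*. It was present in 33.8% of all promoters and in 14 of the 22 members matched. The core letters bound by RBPJ (TGGGAA on either strand), the DNA-binding partner of Notch, were present in 21.6% of all promoters and in 4 of the 22 members. Among the 4 promoters printed, only that of *Pcdh10* held them. None of the 4 printed held TATAAA, which 12.4% of all promoters and 2 of the 22 members did. Their GC content was 63.2% in *Pcdh10*, 69.2% in *Pcdh19*, 51.2% in *Cdh6* and 58.4% in *Pcdh7*, beside a median of 52.4%. *Pcdh10* had 22 and *Pcdh19* 16 CpG dinucleotides against a median of 6. *Pcdh7* carried long runs of A and G instead, with 7 CpG.

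Of the 5 type I classical cadherins, which mediate strong adhesion between like cells, only *Cdh2* and *Cdh4* were tested, and neither was called. *Cdh2* (N-cadherin; ENSMUSG00000024304, chr18:16588877-16809246, minus strand) had 228 and 195 CPM in the ctrl libraries and 209, 188 and 193 CPM in the cko libraries. The ranges overlapped, and the means differed by less than their spread (log2 fold change -0.10, SE 0.09, edgeR adjusted p = 0.479). *Cdh4* (R-cadherin; ENSMUSG00000000305, chr2:179442431-179899373, plus strand) had 119.9 and 183 CPM in the ctrl libraries and 129, 153 and 155 CPM in the cko libraries. Here the ctrl libraries stood farther apart than any cko library did from either, and no difference was detectable (log2 fold change -0.05, SE 0.17, edgeR adjusted p = 0.863). *Cdh1*, the epithelial E-cadherin, was counted 1 and 3 counts in the ctrl libraries and 1, 5 and 7 counts in the cko libraries, *Cdh3* (P-cadherin) had at most 3 counts and *Cdh15* (M-cadherin of muscle) at most 1.

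Of the 13 type II cadherins, adhesion proteins whose combinations differ between brain regions and nuclei, 7 were tested and 1 rose. *Cdh6*, a cadherin of early cortical and renal fields (ENSMUSG00000039385, chr15:13028701-13173675, minus strand), had 48.4 and 46.8 CPM in the ctrl libraries and 61.3, 59.2 and 56.7 CPM in the cko libraries. All 3 cko libraries lay above both ctrl libraries, which were nearly equal (47.6 ± 1.16 CPM in ctrl (SD, n = 2) and 59.1 ± 2.29 CPM in cko (SD, n = 3); log2 fold change 0.31, SE 0.08, edgeR adjusted p = 0.0361). The call was lost without ctrl 3 or without any of the cko libraries in turn (adjusted p up to 0.149), with a log2 fold change between 0.28 and 0.33 throughout. *Cdh20* (ENSMUSG00000050840, chr1:104768529-104995481, plus strand) had 88.2 and 112 CPM in the ctrl libraries and 83, 77.4 and 84 CPM in the cko libraries, lower in every cko library but not called (log2 fold change -0.30, SE 0.11, edgeR adjusted p = 0.11). This rested on the ctrl libraries: *Cdh20* was called without ctrl 1 (log2 fold change -0.47, adjusted p = 0.00484), and without ctrl 3 the log2 fold change was -0.11.

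Several type II genes stood out for the distance between the ctrl libraries instead. *Cdh19*, known from Schwann cell and glial precursors, had 57.8 and 32.7 CPM in the ctrl libraries and 44.1, 38.9 and 40.6 CPM in the cko libraries (log2 fold change -0.14, edgeR adjusted p = 0.69). *Cdh11* had 94.7 and 53.6 CPM in the ctrl libraries and 85.8, 73 and 66.5 CPM in the cko libraries (log2 fold change 0.01, edgeR adjusted p = 0.972), so that in both genes ctrl 1 was the highest and ctrl 3 the lowest library. *Cdh22* showed the opposite order, with 27.5 and 54.8 CPM in the ctrl libraries and 34.2, 36.2 and 29.98 CPM in the cko libraries (log2 fold change -0.29, edgeR adjusted p = 0.466). In *Cdh19*, *Cdh11* and *Cdh22* all cko libraries fell between the ctrl libraries, and in *Cdh19* and *Cdh22* the sign of the fold change turned when 1 of the ctrl libraries was left out. In *Cdh11* the cko mean of 75.1 CPM likewise lay below ctrl 1 and above ctrl 3, so its direction depends on the ctrl library taken. *Cdh19* was called lower without ctrl 3 (log2 fold change -0.49, adjusted p = 0.0107) and *Cdh22* without ctrl 1 (log2 fold change -0.72, adjusted p = 0.00366). *Cdh10* and *Cdh24*, the other type II genes tested, had log2 fold changes of -0.10 and 0.16 with overlapping libraries. *Cdh5*, the VE-cadherin of endothelium, was at 0 in every library, and *Cdh7*, *Cdh8*, *Cdh9*, *Cdh12* and *Cdh18* had at most 8 counts. Among the 5 remaining cadherins only *Cdh13* was tested. *Cdh13* (T-cadherin, which lacks a tail and is held by a lipid anchor; ENSMUSG00000031841, chr8:118283733-119324921, plus strand) had 151 and 207 CPM in the ctrl libraries and 145, 137 and 141 CPM in the cko libraries, below ctrl in each cko library but not called (log2 fold change -0.34, SE 0.13, edgeR adjusted p = 0.108). It was called without ctrl 1 (log2 fold change -0.56, adjusted p = 0.00125), whereas without ctrl 3 the log2 fold change was -0.10. *Cdh23* of the inner ear tip links had at most 18 counts, and *Cdh16*, *Cdh17* and *Cdh26* at most 4.

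**Figure D2:**
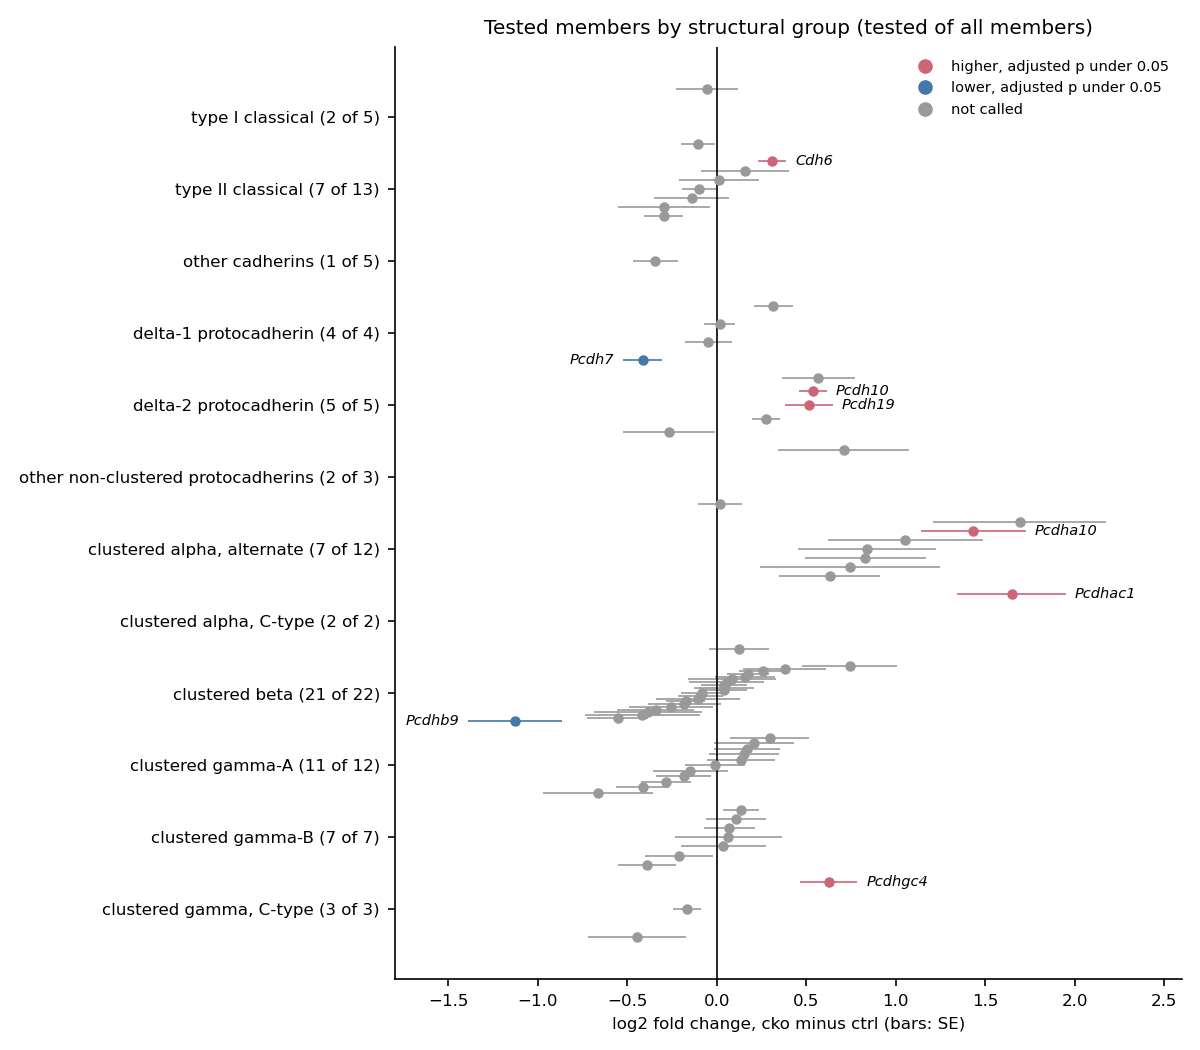
Log2 fold change of the 72 tested members, cko minus ctrl, by structural group. Points are genes, bars their SE, red and blue points those called higher and lower, and the numbers in brackets the tested genes of all in the group. The alpha genes all lie to the right of 0, whereas the beta and gamma genes lie on both sides. Of the alpha genes, *Pcdha3*, *Pcdha5* and *Pcdha7* passed the filter on low counts only through the cko libraries.

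The delta protocadherins, which stand alone in the genome, were all tested: 4 of the delta-1 kind, with longer ectodomains, of which 1 fell, and 5 of the delta-2 kind, of which 2 rose. The smallest p-value of the 72 was that of *Pcdh10* (OL-protocadherin; ENSMUSG00000049100, chr3:45378398-45435623, plus strand), a delta-2 member that couples to the WAVE complex through *Nckap1*. *Pcdh10* had 366 and 329 CPM in the ctrl libraries and 506, 501 and 506 CPM in the cko libraries. The cko libraries were nearly equal, and each stood above both ctrl libraries (348 ± 26.3 CPM in ctrl (SD, n = 2) and 504 ± 2.49 CPM in cko (SD, n = 3); log2 fold change 0.54, SE 0.08, edgeR adjusted p = 0.00611). The call was lost only without cko 2 (adjusted p = 0.0509), where the log2 fold change was 0.53.

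*Pcdh19* (ENSMUSG00000051323, chrX:133582860-133688987, minus strand), another delta-2 member and the gene of an X-linked epilepsy of girls, had 53.8 and 39.5 CPM in the ctrl libraries and 70.3, 67.1 and 63 CPM in the cko libraries. Every cko library exceeded both ctrl libraries, of which ctrl 3 was the lower (46.7 ± 10.1 CPM in ctrl (SD, n = 2) and 66.8 ± 3.65 CPM in cko (SD, n = 3); log2 fold change 0.52, SE 0.13, edgeR adjusted p = 0.0397). The call was lost without ctrl 3, where the log2 fold change dropped to 0.32, and without any cko library in turn (adjusted p up to 0.136). Without ctrl 1 it was 0.75. *Pcdh19* and *Pcdh11x*, a delta-1 member, are on the X chromosome, and the sex-linked genes differed between the groups. *Xist*, the RNA that coats the inactive X of female cells, had 2885 and 2554 CPM in the ctrl libraries and 786, 848 and 893 CPM in the cko libraries (log2 fold change -1.69, edgeR adjusted p = 0.000367). The Y-linked *Kdm5d* had 25 and 27 CPM in the ctrl libraries and 68.9, 69.1 and 67.5 CPM in the cko libraries (log2 fold change 1.40, edgeR adjusted p = 0.000389). *Ddx3y*, *Uty* and *Eif2s3y* were called higher in cko as well. All libraries thus held both *Xist* and Y-linked RNA, in other proportions in ctrl than in cko, and its part in the values of *Pcdh19* and *Pcdh11x* was not tested. *Pcdh11x* had 51.2 and 63.5 CPM in the ctrl libraries and 75.3, 71 and 67.8 CPM in the cko libraries, above ctrl in each cko library but not called (log2 fold change 0.32, SE 0.11, edgeR adjusted p = 0.0903).

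The other delta-2 genes were *Pcdh17*, *Pcdh8* and *Pcdh18*. *Pcdh17*, which like *Pcdh10* recruits WAVE regulators (ENSMUSG00000035566, chr14:84443563-84539002, plus strand), had 120.1 and 132 CPM in the ctrl libraries and 157, 146 and 153 CPM in the cko libraries. The groups did not overlap, but the adjusted p was just past the threshold (log2 fold change 0.27, SE 0.08, edgeR adjusted p = 0.0538). Without ctrl 3 *Pcdh17* was called (log2 fold change 0.35, adjusted p = 0.019). *Pcdh8* (PAPC, known from the presomitic mesoderm) had 5.85 and 4.48 CPM in the ctrl libraries and 8.78, 7.45 and 6.84 CPM in the cko libraries and was not called (log2 fold change 0.57, edgeR adjusted p = 0.103). *Pcdh18*, by contrast, overlapped between the groups at 2.61 to 3.97 CPM (log2 fold change -0.27). So 4 of the 5 delta-2 genes were higher in every cko library, beside the 25.4% of all genes given above, and 2 passed the test.

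*Pcdh7* was the delta-1 gene that fell. *Pcdh7* (BH-protocadherin; ENSMUSG00000029108, chr5:57717967-58133230, plus strand) had 67.7 and 86.3 CPM in the ctrl libraries and 59.6, 55.7 and 57.8 CPM in the cko libraries. The cko libraries lay close together and below both ctrl libraries, of which ctrl 3 was the higher (77 ± 13.2 CPM in ctrl (SD, n = 2) and 57.7 ± 1.99 CPM in cko (SD, n = 3); log2 fold change -0.41, SE 0.11, edgeR adjusted p = 0.0432). The call was lost without ctrl 3 (log2 fold change -0.23) and without any cko library in turn (adjusted p up to 0.157). Without ctrl 1 the log2 fold change was -0.59. The other delta-1 genes, *Pcdh9* and *Pcdh1*, were not called. *Pcdh9*, one of the most strongly expressed delta genes here, had 107 and 86.7 CPM in the ctrl libraries and 108, 85.7 and 88.4 CPM in the cko libraries (log2 fold change -0.05, edgeR adjusted p = 0.847). *Pcdh1* differed little, at 49.7 to 57.1 CPM over all libraries (log2 fold change 0.02, edgeR adjusted p = 0.92). Exons of *Pcdh7*, *Pcdh8*, *Pcdh10* and *Pcdh19* overlap a gene on the opposite strand in the annotation. Free of it are 8369 of 10604 exon bases in *Pcdh7*, 4102 of 4538 in *Pcdh8*, 15734 of 15888 in *Pcdh10* and 10407 of 10464 in *Pcdh19*. Whether counting used strand is not given in the sources used here, so reads from the shared bases cannot be assigned to either gene.

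*Pcdh15*, a tip-link protein of hair cells that is also known as a marker of oligodendrocyte precursors (ENSMUSG00000052613, chr10:73099342-74649737, plus strand), was among the highest members by CPM. It had 236 and 225 CPM in the ctrl libraries and 269, 200.03 and 231 CPM in the cko libraries, overlapping between the groups (log2 fold change 0.02, SE 0.12, edgeR adjusted p = 0.939). *Pcdh20* had 1.22 and 2.72 CPM in the ctrl libraries and 3.24, 2.7 and 3.63 CPM in the cko libraries and was not called (log2 fold change 0.71, edgeR adjusted p = 0.227). *Pcdh12*, a protocadherin of endothelium and trophoblast, had at most 1 count.

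In the clusters, 51 of the 58 genes were tested, 3 rose and 1 fell. These are 5.88% and 1.96% of those tested, both below the 7.86% and 8.57% of all genes. The counts of each cluster below are to be read beside the same shares. The clustered genes lie on chromosome 18 from 36930184 (*Pcdha1*) to 37841873 (the end that all gamma genes share). The alpha cluster was low in total, the gamma cluster highest. Summed over the 14 alpha genes the level was 24.6 and 24.1 CPM in the ctrl libraries and 34.8, 36.3 and 33.6 CPM in the cko libraries, a ratio of the group means of 1.43 (log2 ratio 0.52). The 22 beta genes summed to 253 and 233 CPM in the ctrl libraries and 254, 233 and 240.3 CPM in the cko libraries. The 22 gamma genes summed to 448 and 446 CPM in the ctrl libraries and 419, 422 and 402 CPM in the cko libraries. In the alpha sum every cko library stood above both ctrl libraries, and in the beta sum the groups overlapped. In the gamma sum every cko library stood below ctrl with a log2 ratio of -0.11. This rested on *Pcdhgc3*. Without it the gamma genes summed to 198 and 171 CPM in the ctrl libraries and 188, 176 and 175 CPM in the cko libraries. Those sums overlapped between the groups (log2 ratio -0.036) and lay below the beta sum in every library. These sums carry no test. Leaving out 1 library at a time, the log2 ratio of the alpha sum stayed between 0.49 and 0.55, whereas that of the beta sum lay on both sides of 0.

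**Figure D3:**
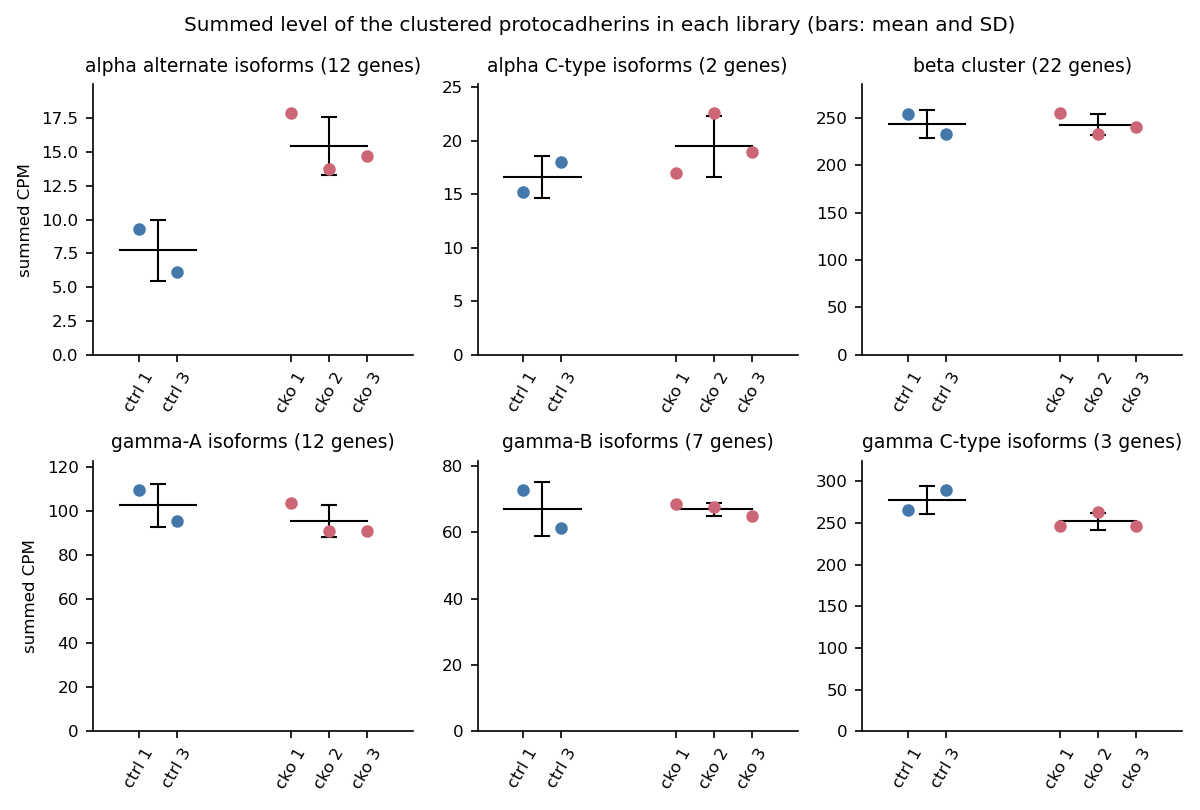
Summed level of the clustered protocadherins by library. The vertical axis is the sum of TMM-normalized CPM over the genes of each set, from 0; blue points are ctrl and red points cko libraries, with mean and SD in black. Of the 6 sets drawn, the cko points lie wholly above the ctrl points only in the 12 alternate isoforms of the alpha cluster.

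The alpha cluster holds 12 alternate isoforms, chosen in a mosaic way between cells, and 2 C-type isoforms, which are expressed more evenly. Of the 9 alpha genes tested 2 rose, none fell, and all 9 had a log2 fold change above 0, from 0.12 to 1.69 with a median of 0.84, beside -0.0026 over all genes tested. In 7 of the 9 all cko libraries lay above both ctrl libraries, beside 25.4% of all genes tested. The 2 that rose are 22.2% of the 9, beside 7.86% of all genes tested. The alternate isoforms summed to 9.34 and 6.13 CPM in the ctrl libraries and 17.8, 13.7 and 14.7 CPM in the cko libraries, a ratio of 1.99. The C-type isoforms summed to 15.2 and 18 CPM in the ctrl libraries and 16.9, 22.5 and 18.9 CPM in the cko libraries, a ratio of 1.17. The alternate isoforms therefore accounted for most of the difference, on 214 and 115 counts in ctrl and 319, 321 and 320 in cko. The isoforms share constant exons, so the 9 genes are not independent measurements, and 5 of the 14 had too few counts to test. *Pcdha3*, *Pcdha5* and *Pcdha7*, with 7, 4 and 7 counts in ctrl 3, passed the filter on low counts only through the cko libraries. Their signs, and the counts and median that include them, are therefore not free of the filter. The sums hold all 14 genes, tested or not.

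*Pcdha10* (ENSMUSG00000007440, chr18:37005203-37187657, plus strand) had 1.09 and 0.906 CPM in the ctrl libraries and 3.02, 2.31 and 2.85 CPM in the cko libraries, from 25 and 17 counts in the ctrl libraries and 54, 54 and 62 counts in the cko libraries. The groups were well apart (0.998 ± 0.131 CPM in ctrl (SD, n = 2) and 2.73 ± 0.368 CPM in cko (SD, n = 3); log2 fold change 1.43, SE 0.29, edgeR adjusted p = 0.0187). Without any 1 of the cko libraries the call was lost (adjusted p up to 0.0865). The C-type *Pcdhac1* (ENSMUSG00000103255, chr18:37090013-37187657, plus strand) had 0.742 and 0.639 CPM in the ctrl libraries and 2.12, 2.27 and 2.16 CPM in the cko libraries, from 17 and 12 counts in the ctrl libraries and 38, 53 and 47 counts in the cko libraries. This was the tightest of the alpha differences (0.691 ± 0.0722 CPM in ctrl (SD, n = 2) and 2.18 ± 0.0763 CPM in cko (SD, n = 3); log2 fold change 1.65, SE 0.30, edgeR adjusted p = 0.0129). The call was lost without cko 2 or cko 3 (adjusted p up to 0.0669). *Pcdha5* passed the study's threshold but not the adjusted one (log2 fold change 1.69, SE 0.48, edgeR adjusted p = 0.0534), with 0.567 and 0.213 CPM in the ctrl libraries and 1.4, 1.07 and 1.47 CPM in the cko libraries. *Pcdha5* was tested only because its cko libraries passed the filter on low counts. It was called without ctrl 1 (log2 fold change 2.57, adjusted p = 0.0252), and without ctrl 3 the log2 fold change was 1.20.

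*Pcdha12*, the alternate isoform with the highest level, had 2.79 and 1.65 CPM in the ctrl libraries and 5.25, 3.6 and 3.17 CPM in the cko libraries, separate between the groups but not called (log2 fold change 0.83, SE 0.34, edgeR adjusted p = 0.136). Among the isoforms not tested, *Pcdha6* had 0 and 0 counts in the ctrl libraries and 5, 9 and 3 counts in the cko libraries, whereas *Pcdha1*, *Pcdha4*, *Pcdha8* and *Pcdha11* overlapped between the groups at 0 to 9 counts. Only 404 of 5768 exon bases in *Pcdha4* and 1268 of 7535 in *Pcdha11* are free of other genes. The low counts of *Pcdha4* and *Pcdha11* therefore cannot be read as low expression. *Pcdhac2*, the second C-type isoform, held the largest share of the cluster's counts, on average 55.8%. Its share was 59% and 71.9% in the ctrl libraries and 42.6%, 55.8% and 49.9% in the cko libraries. It had 14.48 and 17.3 CPM in the ctrl libraries and 14.8, 20.3 and 16.8 CPM in the cko libraries, which overlapped (log2 fold change 0.12, SE 0.17, edgeR adjusted p = 0.652).

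The beta genes are single-exon genes with no shared constant region, although near-identical copies can still split reads and the exons of 3 overlap another gene. Of the exon bases 1107 of 3034 in *Pcdhb12*, which overlaps a gene on the opposite strand, 4250 of 4705 in *Pcdhb21* and 6154 of 6609 in *Pcdhb22* are free of other genes. Of 22, 21 were tested, none rose and 1 fell, with a median log2 fold change of -0.08. *Pcdhb9* (ENSMUSG00000051242, chr18:37400855-37403909, plus strand) had 5.58 and 6.98 CPM in the ctrl libraries and 3.74, 2.61 and 2.3 CPM in the cko libraries, from 128 and 131 counts in the ctrl libraries and 67, 61 and 50 counts in the cko libraries. All cko libraries lay below both ctrl libraries (6.28 ± 0.988 CPM in ctrl (SD, n = 2) and 2.88 ± 0.762 CPM in cko (SD, n = 3); log2 fold change -1.13, SE 0.26, edgeR adjusted p = 0.0285). It was not called without ctrl 3, cko 2 or cko 3 (adjusted p up to 0.121), at log2 fold changes between -1.36 and -0.96. *Pcdhb14* pointed the same way at a log2 fold change of -0.55 and *Pcdhb6* the other way at 0.74, neither of them called (adjusted p = 0.0635 and 0.1). *Pcdhb20*, the beta gene with the highest level per length, had 28.3 and 23.6 CPM in the ctrl libraries and 23, 26 and 24.6 CPM in the cko libraries (log2 fold change -0.08, edgeR adjusted p = 0.675). Reads were spread over the cluster: the isoform with the most counts, *Pcdhb19*, held on average 13.4% of them. *Pcdhb1* had at most 1 count.

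Of the 22 gamma genes 21 were tested and 1 rose. *Pcdhgc4* (ENSMUSG00000023036, chr18:37815079-37841873, plus strand), the C-type isoform on which the survival of neurons in the mouse is known to depend, had 9.2 and 7.35 CPM in the ctrl libraries and 12, 13.7 and 12.7 CPM in the cko libraries. Each cko library exceeded both ctrl libraries (8.28 ± 1.31 CPM in ctrl (SD, n = 2) and 12.8 ± 0.85 CPM in cko (SD, n = 3); log2 fold change 0.63, SE 0.16, edgeR adjusted p = 0.0379). Without ctrl 3 or any cko library it was no longer called (adjusted p up to 0.157). The neighbouring *Pcdhgc3* (ENSMUSG00000102918, chr18:37806364-37841873, plus strand) held on average 57.5% of the counts of the cluster and had 250.3 and 276 CPM in the ctrl libraries and 231, 246 and 227 CPM in the cko libraries. It was lower in every cko library but not called (log2 fold change -0.17, SE 0.08, edgeR adjusted p = 0.196). The third C-type isoform, *Pcdhgc5*, had 6.33 and 6.71 CPM in the ctrl libraries and 3.69, 4.03 and 6.61 CPM in the cko libraries (log2 fold change -0.44, edgeR adjusted p = 0.306). The values of the 3 C-type genes thus lay on both sides of 0.

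None of the alternate gamma isoforms tested was called. The 11 gamma-A genes ranged from a log2 fold change of -0.66 (*Pcdhga8*) to 0.30 (*Pcdhga12*), with a median of -0.01, and the 7 gamma-B genes from -0.39 (*Pcdhgb1*) to 0.14 (*Pcdhgb6*), with a median of 0.06. *Pcdhga3*, the gamma-A gene with the highest level, had 22.6 and 18.5 CPM in the ctrl libraries and 20.5, 18.3 and 15.6 CPM in the cko libraries (log2 fold change -0.19, edgeR adjusted p = 0.447). *Pcdhgb6*, the highest gamma-B gene, had 19.9 and 19.7 CPM in the ctrl libraries and 22, 21.5 and 21.9 CPM in the cko libraries (log2 fold change 0.14, edgeR adjusted p = 0.392). *Pcdhga10* had at most 3 counts, but no exon base of it is free of another annotated gene, so its low count cannot be read as low expression.

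Set on a scale per kilobase of exon, on which genes can be compared, *Pcdhgc3* had the highest level of the superfamily, with 47.8 ± 3.25 in ctrl and 42.6 ± 1.78 in cko CPM per kilobase (SD, n = 2 and 3). Counted per kilobase of exon that no other gene shares, its level over the 5 libraries was 135 in place of 44.7, since 1821 of its 5499 exon bases are free of other genes. It was followed by *Pcdh10* (21.9 ± 1.65 in ctrl and 31.7 ± 0.157 in cko), *Cdh2* (26.2 ± 2.88 in ctrl and 24.4 ± 1.38 in cko), *Cdh20* (25 ± 4.22 in ctrl and 20.3 ± 0.88 in cko) and *Cdh4* (20.9 ± 6.13 in ctrl and 20.1 ± 2.02 in cko). In ctrl the means of these 4 lay within their summed SDs of one another, whereas in cko *Pcdh10* stood clear above *Cdh2*, and *Cdh2* above *Cdh20* and *Cdh4*, which were level with each other. *Pcdh9* (14.3 ± 2.17 in ctrl and 13.9 ± 1.83 in cko) and *Cdh13* (15.9 ± 3.52 in ctrl and 12.6 ± 0.327 in cko) came next and overlapped. *Pcdh17*, *Cdh19*, *Cdh22* and *Pcdh15* followed, with means between 9.04 and 11.7 CPM per kilobase in both groups. In ctrl they lay within their summed SDs of one another, whereas in cko *Pcdh17* (11.7 ± 0.42) stood above *Cdh19* (9.63 ± 0.62) and *Cdh22* (9.04 ± 0.862) by more than that. Of the cadherins proper, N-cadherin thus had the highest mean in both groups, and E-cadherin was near the floor.

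**Figure D4:**
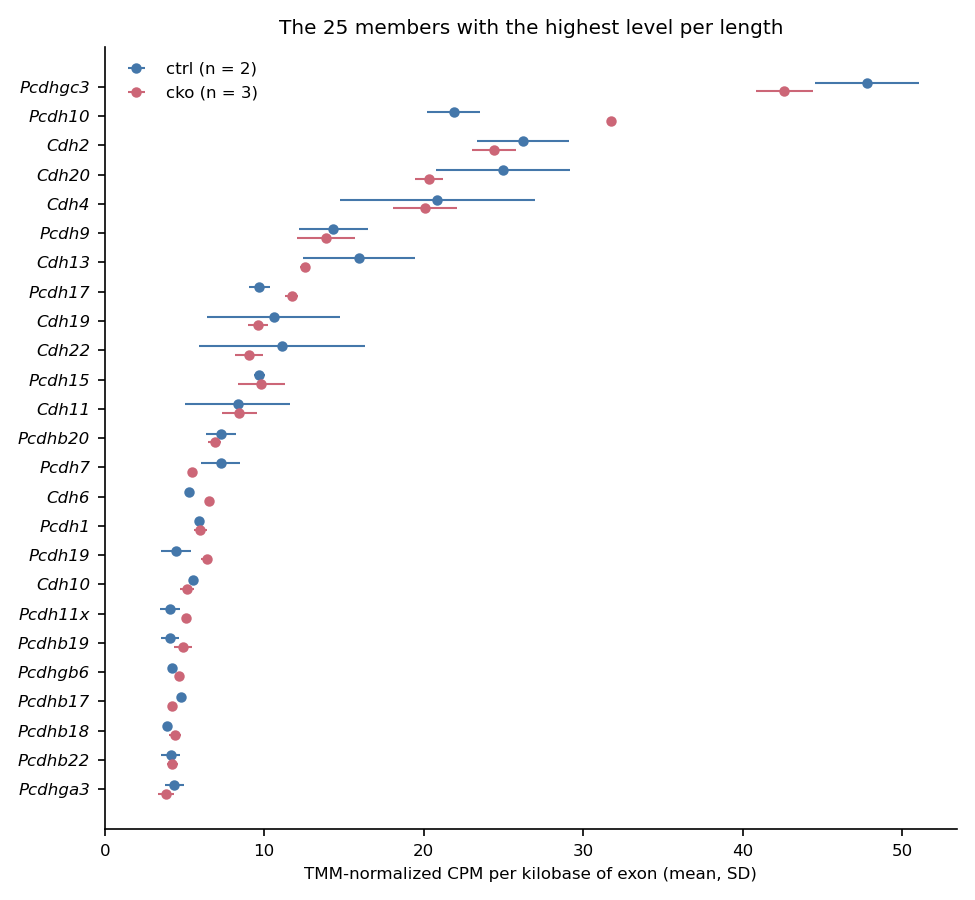
Level of the 25 members with the highest mean, in TMM-normalized CPM per kilobase of annotated exon, from 0. Points are group means over 2 ctrl (blue) and 3 cko (red) libraries and bars the SD; *Pcdhgc3* lies highest in both groups and *Pcdh10* second in cko.

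Genes that work with cadherins were taken from 6 lists of 69 genes, of which 54 were tested, 11 rose and 5 fell. These are 20.4% and 9.26% of those tested, beside 7.86% and 8.57% of all genes, and the counts of each list below are to be read beside the same shares. Catenins link classical cadherins to actin, and of the 10 tested in the list 2 rose and 1 fell. *Ctnnb1* (beta-catenin) had 678 and 673 CPM in the ctrl libraries and 858, 871 and 819 CPM in the cko libraries and rose (log2 fold change 0.33, SE 0.07, edgeR adjusted p = 0.0261). *Ctnna2* (alpha-N-catenin) had 63.4 and 48.9 CPM in the ctrl libraries and 91.9, 79.6 and 83.5 CPM in the cko libraries and rose (log2 fold change 0.59, SE 0.13, edgeR adjusted p = 0.0204). *Jup* (plakoglobin) fell, from 65.8 and 58.5 in ctrl against 50.6, 43.9 and 41.5 CPM in cko (log2 fold change -0.46, SE 0.11, edgeR adjusted p = 0.0293). *Ctnna1*, *Ctnnd1* and the 5 other genes tested, with log2 fold changes from -0.86 to 0.24, were not called.

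Among 14 tested genes of the wider superfamily *Fat4* and *Dsc2* rose and none fell. *Fat4*, a giant cadherin of planar polarity that binds *Dchs1*, had 69.1 and 69 CPM in the ctrl libraries and 109, 96.7 and 96.7 CPM in the cko libraries (log2 fold change 0.54, SE 0.08, edgeR adjusted p = 0.00709). *Dsc2*, a desmosomal cadherin, had 3.84 and 2.66 CPM in the ctrl libraries and 8.94, 5.78 and 7.12 CPM in the cko libraries (log2 fold change 1.15, SE 0.27, edgeR adjusted p = 0.0286). Of the 8 proteases that cut cadherins, *Adam10*, which sheds N-cadherin and gamma protocadherins, rose with 165 and 146 CPM in the ctrl libraries and 189, 190.1 and 189.7 CPM in the cko libraries (log2 fold change 0.28, SE 0.08, edgeR adjusted p = 0.0495). The gamma-secretase subunit *Aph1b* had 48 and 46 CPM in the ctrl libraries and 63, 57.6 and 58.9 CPM in the cko libraries and rose (log2 fold change 0.35, SE 0.08, edgeR adjusted p = 0.0283). *Psen2*, a catalytic subunit, fell, from 10.8 and 7.94 in ctrl against 4.86, 6.34 and 5.46 CPM in cko (log2 fold change -0.76, SE 0.21, edgeR adjusted p = 0.0462). *Aph1a*, the subunit at the centre of the study's title, overlapped between the groups with 72 and 84.4 CPM in the ctrl libraries and 74.8, 77.8 and 69.3 CPM in the cko libraries (log2 fold change -0.08, SE 0.10, edgeR adjusted p = 0.613). The paper reports more APH1A protein in cko NSCs by western blot and a luciferase assay of the 3′UTR. RNA levels measure neither.

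Of the 10 tested tail partners of protocadherins, kinases and the WAVE complex, none rose and 3 fell. *Wasf2* had 90.1 and 87.8 CPM in the ctrl libraries and 65.5, 67.7 and 67.2 CPM in the cko libraries (log2 fold change -0.41, SE 0.07, edgeR adjusted p = 0.00968). *Cyfip2* had 417 and 351 CPM in the ctrl libraries and 291, 239 and 245 CPM in the cko libraries (log2 fold change -0.57, SE 0.11, edgeR adjusted p = 0.0176), and both were lower in every cko library. *Wasf3* fell less (log2 fold change -0.38, edgeR adjusted p = 0.0489), whereas *Nckap1*, which binds *Pcdh10*, was not called (log2 fold change -0.07). Of the 10 chromatin proteins known to act at clustered protocadherin promoters 5 rose and none fell. The cohesin subunits *Smc1a* and *Rad21* had the smallest p-values of the list. *Smc1a* had 166 and 144 CPM in the ctrl libraries and 239, 263 and 259 CPM in the cko libraries (log2 fold change 0.71, SE 0.09, edgeR adjusted p = 0.00415). *Rad21* had 337 and 321 CPM in the ctrl libraries and 465, 495 and 494 CPM in the cko libraries (log2 fold change 0.56, SE 0.08, edgeR adjusted p = 0.00465). *Smc3* (log2 fold change 0.41, edgeR adjusted p = 0.0114), *Ctcf* (log2 fold change 0.42, edgeR adjusted p = 0.015) and *Dnmt1* (log2 fold change 0.65, edgeR adjusted p = 0.0226) rose too, while *Setdb1*, *Smchd1*, *Nipbl*, *Wapl* and *Dnmt3b* were not called. *Smc1a* is X-linked as *Pcdh19* is. These proteins serve chromosomes in every dividing cell, so their values are given beside the alpha isoforms with no link tested. Of the factors known to repress E-cadherin only *Zeb1* and *Zeb2* were tested and neither was called.

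**Figure D5:**
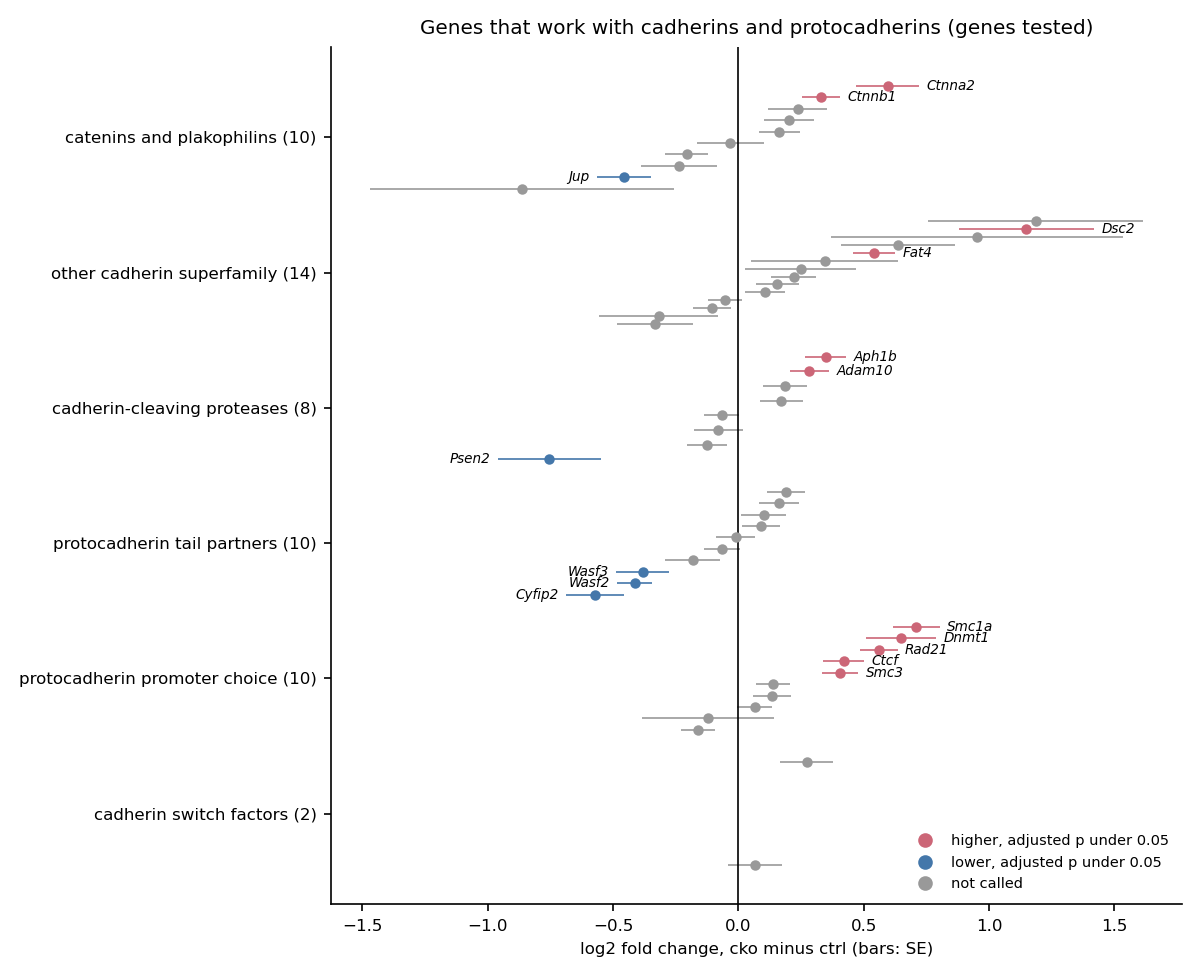
Log2 fold change, cko minus ctrl, of the 54 tested genes that work with cadherins and protocadherins, by list. Bars are SE, and red and blue points genes called higher and lower; 5 of the 10 promoter-choice genes are called higher and 3 of the 10 tail partners lower.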

How the data were processed

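The 6 samples were bulk RNA-seq libraries of E14.5 mouse NSCs, 3 ctrl and 3 cko per the labels. The authors aligned reads with HISAT2 to mm10, while the submitters' processing notes name GRCm39, and deposited raw counts per gene without normalization; the counting tool and strand setting are not given in the sources used here. Symbols, positions and exons came from GENCODE M21 on GRCm38, which named 31836 of 32493 gene IDs, with *Pcdha10* (there a second *Pcdha11*) renamed by its RefSeq position.

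Counts of 5 libraries (ctrl 2 was the rounded mean of ctrl 1 and ctrl 3) were filtered by edgeR's filterByExpr, scaled by TMM and tested over 16710 genes by the quasi-likelihood test (R 4.3.3, edgeR 4.0.16), with Benjamini-Hochberg adjustment over all tested genes and calls under 0.05. The fit was tested on simulated data with 200 changed genes. Alternatives were DESeq2 1.42.0, other scalings and filters, all 6 columns, the replicate number as a block, each library left out and the study's threshold. Total counts per library, given above, set the precision.

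Members and lists were chosen with earlier results of these data known. The genes named are those called or past the study's threshold, the 10 with the highest level per kilobase, the highest of each structural group and, per list of partners, the 2 with the smallest p in each direction, with *Ctnnb1*, *Ptk2* and *Aph1a*; other genes given with values were chosen after these were seen. *Arvcf*, *Cldn5* and *Pifo* of the lists were not analysed here. Figures were drawn with matplotlib 3.10.9.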

Additional observations from a re-analysis of the deposited data

How the results depend on the processing

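The 2 ctrl libraries limit every result, and a lone ctrl library is assumed to vary like the cko libraries when the other is left out. Of the members, 6 rose and 2 fell in the main comparison. DESeq2 called 8 and 3 (10% and 10.8% of all genes), the other scalings and the minimum of 10 counts in every library 6 or 7 and 2 (7.61% to 8.48% and 8.49% to 9.82%). With no filter on low counts 12 of 92 members tested rose and 5 fell (6.02% and 7.33% of all genes), with all 6 columns, where the averaged column lowers the spread, 14 and 6 (17.6% and 17.1%), and at the study's threshold 3 and 1 (2.39% and 4.17%). Leaving out 1 library, 0 to 9 rose and 0 to 5 fell: without cko 2, where edgeR called 1.95% and 2.55% of all genes, no member rose or fell (8 and 3 at an unadjusted p under 0.05), without cko 3 (2.06% and 2.8%) 1 rose and none fell (4 at an unadjusted p under 0.05), without cko 1 (5.18% and 5.5%) 2 rose and 1 fell, without ctrl 3 (10.3% and 10%) 6 rose and 2 fell, and without ctrl 1 (9.74% and 11.9%) 9 rose and 5 fell. Of the partner genes, 11 rose and 5 fell; with all 6 columns 17 rose, at the study's threshold 1 and 0 (7 fell at an unadjusted p under 0.05), and leaving out 1 library 3 to 15 rose and 0 to 6 fell, the fewest without cko 2 or cko 3. Of the partner genes called and given by library, *Fat4*, *Smc1a* and *Rad21* were called whichever library was left out, whereas the others lost the call without cko 2 and without cko 3. Same-numbered libraries deviated together with r of 0.143 (ctrl 1, cko 1) and 0.0507 (ctrl 3, cko 3) across 16710 genes, with only 2 pairs, so they were taken to share only a number. With the replicate block, where 5.49% of all genes rose and 6.37% fell, 4 members rose and none fell by edgeR (3 at an unadjusted p under 0.05), and 7 partner genes rose and 3 fell; with the block and all 6 columns (16.4% each way) 14 members rose and 7 fell. Of the genes named by the rule above, signs turned only in those not called in the main comparison: with the block *Pcdh9* had a log2 fold change of 0.019, *Pcdhac2* -0.0083 and *Ptk2* 0.0016, and leaving out 1 library the values ran from -0.21 to 0.0019 in *Cdh2*, -0.34 to 0.29 in *Cdh4*, -0.49 to 0.32 in *Cdh19*, -0.72 to 0.29 in *Cdh22*, -0.19 to 0.11 in *Pcdh9*, -0.10 to 0.11 in *Pcdh15*, -0.018 to 0.26 in *Pcdhac2*, -0.20 to 0.047 in *Pcdhb20*, -0.2 to 0.043 in *Aph1a* and -0.1 to 0.081 in *Ptk2*. The causes were not tested. Per exon base that no other gene shares, mean levels of the named alpha and gamma genes and *Pcdh7* moved by more than the SD over the 5 libraries, and those of the other named members by less or not at all.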
